A study of Homo sapiens with 12 samples.

Results

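The MAX network is a family of transcription factors that bind DNA as pairs through a basic helix-loop-helix leucine zipper. The family as taken here has 9 genes, MYC, MAX, MXI1, MXD1, MXD3, MXD4, MNT, MLX and MGA, chosen by symbol and matched to the NCBI gene IDs of the authors' deposited table. Of these, 3 have a row among the 5759 genes of that table: MYC (gene ID 4609), MXI1 (4601) and MLX (6945). The other 6 (MAX, MXD1, MXD3, MXD4, MNT and MGA) are not analysed here. Every row of the table has a log2 fold change beyond 1 in either direction in some comparison, so the 3 genes described are ones listed because they changed.

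As background, MYC pairs with MAX and activates genes that carry an E-box, the sequence CACGTG, among them many genes of ribosome production and cell growth. MXI1 and the other MXD proteins also pair with MAX, bind the same sequence and recruit the SIN3 corepressor with its histone deacetylases. MLX is a second shared partner, which pairs with MondoA or ChREBP, sensors of glucose metabolites, and with some of the MXD proteins. MYC is a central oncogene of T-cell acute lymphoblastic leukaemia, where NOTCH1 signalling drives its transcription, and its mRNA and protein are short-lived.

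The cells were MOLT4, an established T lymphoblast line from a human T-cell acute lymphoblastic leukaemia, labelled as wild type in all groups. There were 12 samples in 4 groups of 3: vehicle (DMSO, 6 h), compound 955 given at 0.1 µM and collected after 1 h, the same dose of 955 collected after 6 h, and SNS-032 (1 µM, 6 h). SNS-032 inhibits cyclin-dependent kinases, including CDK9, which releases paused RNA polymerase II, and it is the target-binding part of 955, a conjugate of the natural product piperlongumine made for targeted protein degradation. The doses of the compounds differ, and DMSO cells were taken at 6 h alone, so treatment and time in culture cannot be told apart in the comparison of 955 at 1 h. Of 16 T lymphoblast markers, 6 (CD7, CD2, CD3G, CD4, BCL11B and DNTT) are in the table, with average levels from 4.75 to 8.29 (log2 CPM, where CPM is a gene's reads scaled to a common library size), and of 7 markers of other cells, 2 (CD79A and COL1A1) are, at 3.94 and 3.18. The table holds genes that changed, so a marker's absence from it does not show that the marker is unexpressed. The levels are averages that include the treated groups, so these markers are no check of cell identity. Sequencing depth is unknown, and values of single samples were not used here.

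The E-box was searched in the promoter windows of RefSeq (GRCh38.p14), which run from 250 bases before to 50 bases after an annotated gene start. CACGTG, which reads the same on both strands, was in 7.26% of all 35116 windows. MLX lies at chr17:42567100-42573203 and MXI1 at chr10:110207605-110287365, both on the plus strand. The single MLX window holds 1 E-box, whose last base lies 45 bases before the start, and none of the 3 MXI1 windows holds one. The 250 bases before the start of MLX (chr17:42566850-42567099) and before the first start of MXI1 (chr10:110207355-110207604) are shown to set the 2 genes side by side, with the E-box in capitals.
MLX: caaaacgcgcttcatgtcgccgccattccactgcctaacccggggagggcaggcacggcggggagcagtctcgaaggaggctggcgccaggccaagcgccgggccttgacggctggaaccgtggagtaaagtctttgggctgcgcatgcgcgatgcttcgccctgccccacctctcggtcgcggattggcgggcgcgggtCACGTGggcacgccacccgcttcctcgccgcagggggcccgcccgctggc
MXI1: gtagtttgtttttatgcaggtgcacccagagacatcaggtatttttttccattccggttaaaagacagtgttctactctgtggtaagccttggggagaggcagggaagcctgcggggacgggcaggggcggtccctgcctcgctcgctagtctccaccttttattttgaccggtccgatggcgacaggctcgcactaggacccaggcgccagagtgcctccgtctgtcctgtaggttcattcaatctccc
A match describes letters in the reference and not binding, and its absence from these windows says nothing about sites elsewhere.

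MYC fell after 6 h of either compound. In the authors' deposited table its log2 fold change was -3.07 after 955 (FDR 8.71e-06) and -3.53 after SNS-032 (FDR 2.95e-06), which left 11.9% and 8.64% of the level in DMSO. The 95% intervals implied by the authors' F statistics were -3.71 to -2.42 and -4.19 to -2.87. After 1 h of 955 the value in the authors' deposited table was -1.03 with an unadjusted p of 0.0034 and an FDR of 0.0685, so it did not pass an FDR of 0.05, although its implied interval (-1.63 to -0.43) lay below 0.

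MXI1, a repressor that competes with MYC for MAX, moved the other way at 6 h under the authors' scaling of the libraries, but not relative to mitochondrial mRNAs. In the authors' deposited table its log2 fold change was 0.15 after 1 h of 955 (FDR 1), 2.10 after 6 h of 955 (FDR 7.9e-09) and 2.27 after SNS-032 (FDR 2.04e-09), or 4.28-fold and 4.82-fold above DMSO at 6 h. The implied intervals were -0.25 to 0.55, 1.69 to 2.51 and 1.85 to 2.68. The 13 mRNAs of the mitochondrial genome, made by a polymerase of their own, had median log2 fold changes of 0.67, 2.07 and 2.35 in the 3 comparisons, and relative to them MXI1 was at -0.52, 0.026 and -0.078. Its interval at 1 h was then -0.92 to -0.12 (adjusted p 0.0221), and those at 6 h were -0.38 to 0.44 and -0.49 to 0.34. Here and below the mitochondrial median was subtracted as a fixed value, so intervals and p-values relative to it carry no error of the median. This scaling takes the 13 mRNAs as unchanged, which was not tested. Under the authors' scaling all 13 were themselves called higher with both compounds at 6 h. Which scaling is nearer to the amount of mRNA per cell was not tested. The 13 mRNAs ran from 0.42 to 0.73 at 1 h, from 1.90 to 2.34 after 6 h of 955 and from 2.25 to 2.59 after SNS-032.

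MLX fell after 6 h of either compound. In the authors' deposited table its log2 fold change was -2.33 after 955 (FDR 1.12e-11, implied interval -2.63 to -2.02) and -1.98 after SNS-032 (FDR 9.24e-11, -2.28 to -1.68). MLX kept 19.9% of its DMSO level after 955 and 25.3% after SNS-032. After 1 h of 955 the authors' deposited table gave -0.44 with an unadjusted p of 0.00453 and an FDR of 0.0833. Relative to the mitochondrial mRNAs both falling genes were lower still at 6 h, MYC at -5.14 and -5.88 and MLX at -4.40 and -4.33.

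**Figure D1:**
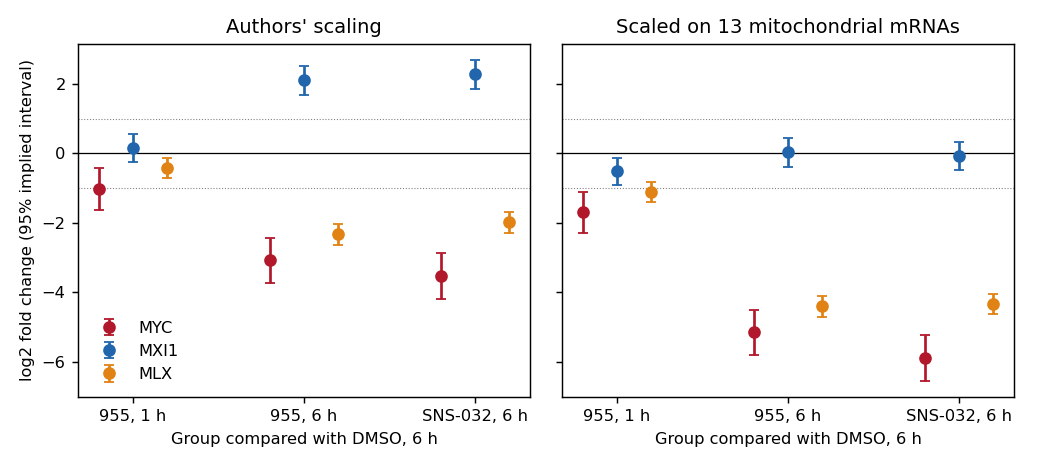
Log2 fold change of MYC, MXI1 and MLX in each treated group against DMSO at 6 h, under the authors' scaling (left) and relative to the 13 mitochondrial mRNAs (right). Points are the fold changes, bars the 95% intervals implied by the F statistics, and dotted lines mark log2 fold changes of -1 and 1. On the right the bars carry no error of the mitochondrial median. MYC and MLX lie below 0 at 6 h in both panels, while MXI1 lies at 2.10 and 2.27 on the left and at 0.026 and -0.078 on the right.

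These calls have to be read against the table they come from. A gene was called with an FDR below 0.05 and a log2 fold change of 1 or more in either direction. By that rule 3 of 3 members were called after 6 h of 955 (1 higher and 2 lower), where 85.3% of the listed genes were (35.2% higher and 50.1% lower). After SNS-032 3 of 3 were called (1 higher and 2 lower), where 90.2% were (37.8% higher and 52.5% lower). After 1 h of 955, 0 of 3 were called, against 8.44% of the listed genes (0.729% higher and 7.71% lower). By an unadjusted p under 0.05, 2 of 3 passed at 1 h, against 36.5%, and 3 of 3 in both 6 h comparisons, against 96.7% after 955 and 97.7% after SNS-032. Relative to the mitochondrial mRNAs 2 members were called lower and 0 higher in each of the 3 comparisons, and the listed genes after 6 h of 955 went from 2026 higher and 2885 lower to 142 higher and 3825 lower. By the same scaling 30.7% of all listed genes were lower after 1 h of 955, 66.4% after 6 h and 72.1% after SNS-032. The share called is therefore no mark of these genes, and their sizes say more. Of the listed genes, 3.21% had a lower log2 fold change than MYC after 6 h of 955 and 2.71% after SNS-032. For MLX these shares were 10.3% and 19.3%. MXI1 had 10.8% and 9.53% of the listed genes above it.

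Levels within each gene were estimated from its average level and its fold changes in the authors' deposited table, taking the average as the log of the mean CPM over the 4 groups. For MYC the estimate was 432 CPM in DMSO, 212 CPM after 1 h of 955, 51.5 CPM after 6 h of 955 and 37.4 CPM after SNS-032. MYC was thus lowest in both 6 h groups, whose interval for the difference included 0. For MXI1 the order was the reverse under the authors' scaling, though not relative to the mitochondrial mRNAs, with 10.3 CPM in DMSO, 11.4 CPM after 1 h, 43.9 CPM after 6 h of 955 and 49.4 CPM after SNS-032, and neither its 2 lowest nor its 2 highest groups differed beyond the implied intervals. MLX was estimated at 84.6 CPM in DMSO, 62.5 CPM after 1 h, 21.4 CPM after SNS-032 and 16.9 CPM after 6 h of 955. These levels carry no error of their own and are not corrected for gene length, so they order the groups within a gene and do not compare genes.

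**Figure D2:**
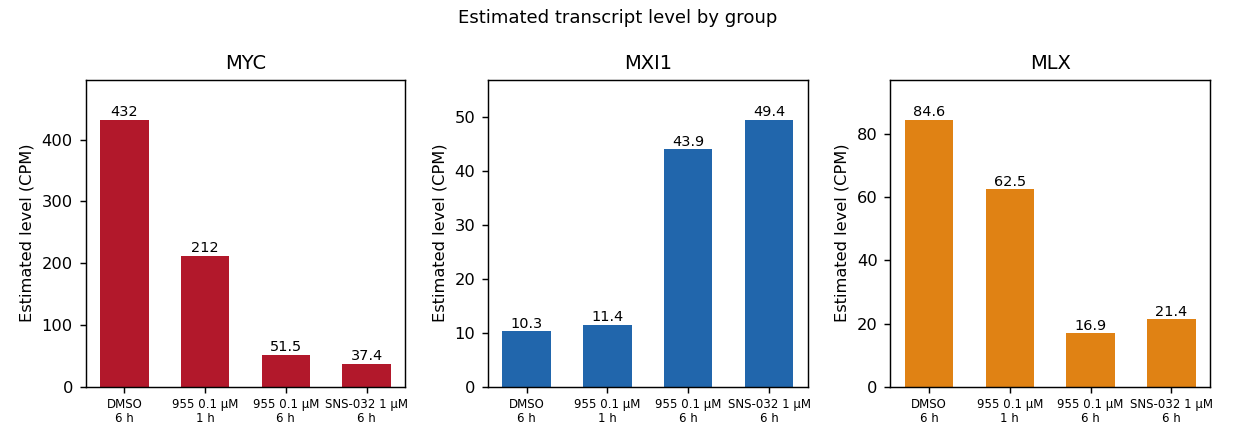
Estimated level (CPM, linear axes from 0, 1 panel per gene) of MYC, MXI1 and MLX in the 4 groups, under the authors' scaling; bars are estimates from the average level and fold changes and have no error bar. MYC runs from 432 CPM in DMSO to 37.4 CPM after SNS-032, MLX from 84.6 CPM to 16.9 CPM, and MXI1 from 10.3 CPM to 49.4 CPM, a rise that is absent relative to the mitochondrial mRNAs.

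Ratios between members do not depend on how the libraries were scaled. The MYC to MXI1 ratio changed by -1.18 on the log2 scale after 1 h of 955, by -5.17 after 6 h of 955 and by -5.80 after SNS-032. The last 2 values are 35.9-fold and 55.7-fold falls. The MYC to MLX ratio changed less, by -0.59, -0.74 and -1.55, and the MLX to MXI1 ratio by -0.59, -4.43 and -4.25. No error was computed for these ratios, since the table does not say how the genes vary together between samples.

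Between 1 h and 6 h of 955, all 3 members passed under the authors' scaling in the approximate contrast of the 2 treated groups, which shares its DMSO samples and uses standard errors implied by F. The log2 difference (6 h minus 1 h) was -2.04 for MYC (standard error 0.28, adjusted p 5.23e-05 over the listed genes by Benjamini-Hochberg), -1.89 for MLX (0.14, 7.3e-11) and 1.94 for MXI1 (0.20, 6.83e-09). Of the listed genes, 62.7% passed the same rule, 27.0% higher and 35.6% lower. For MXI1 the difference was 0.55 relative to the mitochondrial mRNAs (adjusted p 0.0147), in the same direction but under the bound of 1.

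At 6 h the compounds were compared at their different doses, and 0 of 3 members passed in the approximate contrast, where 1.11% of the listed genes did (0.851% higher and 0.26% lower with 955). The number of listed genes that passed, 64, depended on the setting and ran from 8 to 181, while 0 of 3 members passed under each alternative run. The 8 came from an error that treats the DMSO samples as unshared. That error is too large, since both comparisons use the same DMSO samples. The log2 difference (955 minus SNS-032) was 0.46 for MYC, with an interval of -0.19 to 1.12 and an adjusted p of 0.526. It was -0.17 for MXI1 (-0.58 to 0.24, adjusted p 0.769) and -0.34 for MLX (-0.65 to -0.04, unadjusted p 0.0274, adjusted p 0.26). By unadjusted p, 1 of 3 was under 0.05, and the share of all listed genes under that cut was not computed for this contrast. For MYC the interval leaves room for a difference of up to 1.12 log2 units, so these values do not show that 955 at 0.1 µM and SNS-032 at 1 µM act alike.

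The precision differed among the members. The denominator degrees of freedom recovered from F and p were 10.2 for MYC, below all but 3.66% of the listed genes, and 23.3 for both MXI1 and MLX, the median of the table. The implied standard errors after 6 h of 955 were 0.29 for MYC, 0.20 for MXI1 and 0.15 for MLX, while the median over all listed genes was 0.24. The RefSeq span of MLX overlaps PSMC3IP and that of MXI1 overlaps the noncoding gene LOC105378480. Whether reads were counted by strand is not given in the sources used here, so reads of such neighbours may not be fully separated.

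The genes whose 3 log2 fold changes lay nearest to those of each member were found by Euclidean distance over the 3 comparisons. For MYC the 5 nearest protein-coding genes were MAGEF1 at a distance of 0.19, CCDC32 at 0.23, PRMT6 at 0.26, RNF19B at 0.30 and CPTP at 0.30. For MXI1 they were CA8 and TBC1D4, both at 0.10, and for MLX PSKH1 at 0.0401 and QTRT2 at 0.0874.

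Genes that MYC is known to activate mostly fell at 6 h. Of a list of 50, 31 are in the authors' deposited table. After 6 h of 955, 25 fell, 3 rose and 3 did not pass. After SNS-032, 26 fell, 3 rose and 2 did not pass. Over the whole table, 50.1% and 52.5% of genes were called lower and 35.2% and 37.8% higher. The list's median log2 fold change was -1.72 and -1.48, beside -1.03 and -1.07 over all listed genes. After 1 h of 955 the list's median was -0.039, beside -0.054 over all listed genes. Of the 31 targets 1 was called lower, against 7.71% of all listed genes. It was E2F2, a cell cycle transcription factor, at -1.16 in the authors' deposited table (FDR 1.73e-05). E2F2 was at 0.045 after 6 h of 955 in the same deposited table (FDR 1). Relative to the mitochondrial mRNAs E2F2 was at -1.83 after 1 h and -2.03 after 6 h of 955.

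The largest falls in this list were in genes of ribosome assembly. GRWD1, a chaperone of ribosomal protein L3, was at -4.07 after 955 and -4.32 after SNS-032 in the authors' deposited table (FDR 1.03e-06 and 6.34e-07). BRIX1, needed for the large ribosomal subunit, was at -3.96 and -5.34 in the authors' deposited table (4.52e-08 and 3.4e-09). BRIX1 was the only gene of the list to pass in the approximate contrast of the compounds, where it was 1.39 higher with 955 (standard error 0.34, adjusted p 0.0388). That call was lost with the larger of both standard errors (adjusted p 0.0529) and with adjustment over the 28395 tests that the deposited FDR values imply (0.191). It held relative to the mitochondrial mRNAs (0.00567). It was also lost with an error that treats the DMSO samples as unshared (0.517), which is too large because they are shared. NOP16, a nucleolar protein, was at -3.49 and -3.28 in the authors' deposited table (6.09e-11 and 1.08e-10). The 3 genes higher under the authors' scaling, of which TERT and TFRC were not relative to the mitochondrial mRNAs, were CCND2, a D-type cyclin, at 3.67 and 3.75, TERT, the catalytic subunit of telomerase, at 1.6 and 1.96, and TFRC, the transferrin receptor, at 1.22 and 1.18 in the authors' deposited table. Relative to the mitochondrial mRNAs CCND2 stayed above 0, at 1.6 and 1.41, while TERT was at -0.47 and -0.39 and TFRC at -0.85 and -1.17. With that scaling the list split into 1 higher and 28 lower after 955 and 0 higher and 29 lower after SNS-032. Of all listed genes, 66.4% and 72.1% were lower with it.

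**Figure D3:**
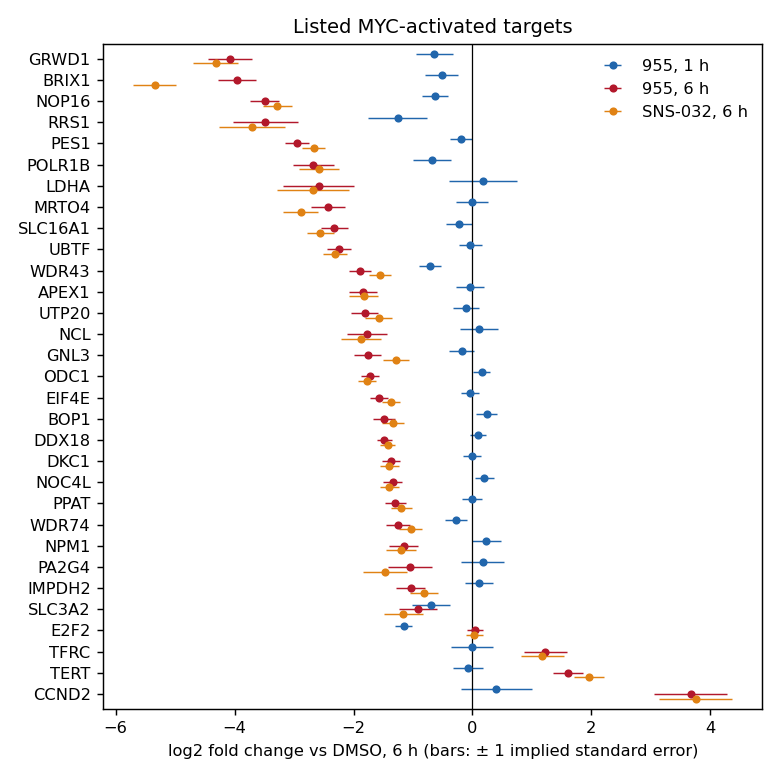
Log2 fold change against DMSO at 6 h (authors' scaling) of the 31 listed MYC-activated targets, ordered by the value after 6 h of 955. Points are the 3 comparisons and bars ± 1 implied standard error. The values at 1 h lie near 0 (median -0.039), and those at 6 h lie mostly below it (medians -1.72 and -1.48), with CCND2, TERT and TFRC above it, of which only CCND2 stays above 0 relative to the mitochondrial mRNAs.

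Of these 31 targets, 25 matched a RefSeq promoter window, and 11 of the 25 (44%) have the E-box, against 12.4% of the 4534 listed genes with a window. Such lists were partly built from E-box genes, so this share is no independent evidence. In the authors' deposited table the median log2 fold change after 6 h of 955 was -1.81 for the 11 targets with an E-box and -1.35 for the 14 without, with 10 of 11 and 10 of 14 called lower. After SNS-032 the medians were -1.58 and -1.44, with 10 of 11 and 12 of 14 called lower. Both groups of targets thus fell, and no test of the difference was made. Sites that lie before the start are shown for 4 of these targets, each with 10 bases on either side and the E-box in capitals, to give the sequence the network shares. APEX1, a DNA repair endonuclease, has 3 of them within its window (chr14:20455111-20455136, chr14:20455172-20455197 and chr14:20455193-20455218, plus strand).
APEX1 site 1: gcgtctccgtCACGTGgtgtcagaca
APEX1 site 2: cgcctctgatCACGTGaccaggtccg
APEX1 site 3: gtccgctaccCACGTGggggctcagc
LDHA, lactate dehydrogenase A, has 2 (chr11:18394368-18394393 and chr11:18394466-18394491, plus strand).
LDHA site 1: actcccagcgCACGTGgagcagtctg
LDHA site 2: gcccgactcaCACGTGggttcccgca
EIF4E, the cap-binding protein of translation, has 2 (chr4:98929343-98929368 and chr4:98929190-98929215, minus strand).
EIF4E site 1: acccatcggcCACGTGaccagtcctt
EIF4E site 2: acatatccgtCACGTGgccagaagct
ODC1, the first enzyme of polyamine synthesis, has 1 before a start (chr2:10448026-10448051, minus strand).
ODC1 site: gggccccgggCACGTGtgcggcgcgc
In the authors' deposited table these 4 genes were at -1.84, -2.58, -1.58 and -1.72 after 6 h of 955 and at -1.83, -2.68, -1.37 and -1.77 after SNS-032, all past the threshold. After 1 h they were at -0.039, 0.18, -0.043 and 0.15 in the authors' deposited table, none past it.

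Of 18 genes known to be repressed by MYC, 9 are in the authors' deposited table, and after 6 h of either compound 6 fell and 3 rose. Over all listed genes 50.1% and 52.5% were called lower and 35.2% and 37.8% higher. The list's medians were -1.57 and -1.78, beside -1.03 and -1.07. GADD45A, a DNA damage response gene, was at -2.83 and -3.16, DDIT3, a stress transcription factor, at -2.74 and -1.78, and CDKN1B, the cyclin-dependent kinase inhibitor p27, at -2.22 and -2.53 in the authors' deposited table. The 3 genes higher under the authors' scaling, all below 0 relative to the mitochondrial mRNAs, were NDRG1 at 1.83 and 2.03, NDRG2 at 1.12 and 1.16 and ITGB1, an integrin subunit, at 1.04 and 1.24 in the authors' deposited table. With the mitochondrial scaling the list split into 0 higher with 7 and 8 lower, and 66.4% and 72.1% of all listed genes were lower. At 1 h, 2 of the 9 had fallen past the threshold, against 7.71% of all listed genes: CDKN1B at -2.16 (FDR 0.000273) and GADD45B at -1.52 (FDR 0.0104) in the authors' deposited table. The list's median at 1 h was -1.04, beside -0.054 over all listed genes.

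MLX acts with MondoA on genes of glucose use, of which 4 of 10 are in the authors' deposited table. TXNIP and ARRDC4, arrestin-family brakes on glucose uptake, fell. TXNIP was at -1.62 after 6 h of 955 (FDR 0.0118) and -2.37 after SNS-032 (FDR 0.00145) in the authors' deposited table. ARRDC4 was at -1.19 (FDR 0.0286) and -2.55 (FDR 0.000145) in the authors' deposited table, and the difference of 1.36 between the compounds did not pass (standard error 0.39, adjusted p 0.0923). PFKFB4 and PFKFB3, which make the glycolysis activator fructose 2,6-bisphosphate, were higher, at 5.40 and 5.58 (FDR 0.000473 and 0.000383) and at 2.23 and 2.38 (FDR 0.0391 and 0.0288) in the authors' deposited table. Relative to the mitochondrial mRNAs PFKFB4 was at 3.33 and 3.24 and PFKFB3 at 0.16 and 0.038. The list then split into 1 higher and 2 lower with each compound, against 66.4% and 72.1% of all listed genes lower. Under the authors' scaling all 4 were called at 6 h, 2 lower and 2 higher, where 85.3% and 90.2% of all listed genes were called. With that scaling none of the 4 passed at 1 h, against 8.44% of all listed genes. MondoA and MLX bind paired E-box-like sites, searched here on both strands as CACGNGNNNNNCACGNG, a pattern that can contain CACGTG and is in 0.057% of all windows. TXNIP is the gene of this list whose window holds it (chr1:145996646-145996672, minus strand), shown with 5 bases on either side and the pattern in capitals.
TXNIP: atgtgCACGAGGGCAGCACGAGcctcc
CACGTG is in the windows of 2 of these 4 genes, ARRDC4, which fell, and PFKFB3, which was higher (chr10:6202814-6202839, plus strand). The window of ARRDC4 holds a single CACGTG, on the plus strand (chr15:97960483-97960508).
ARRDC4: acggcctgtgCACGTGcacgccggag

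Of 29 cofactors of MYC and of the MXD repressors, 18 are in the authors' deposited table, with 13 lower, 2 higher and 3 not past the threshold after 955, and 15, 2 and 1 after SNS-032. Over all listed genes 50.1% and 52.5% were lower. The list's medians were -1.54 and -1.57, beside -1.03 and -1.07. Relative to the mitochondrial mRNAs 17 and 18 were lower and 0 higher, against 66.4% and 72.1% of all listed genes lower. Among the parts of the SIN3 corepressor that MXI1 recruits, BRMS1 was at -2.54 and -3.06 (FDR 8.18e-06 and 1.49e-06) and SIN3A, its scaffold, at -2.31 and -2.30 (FDR 1.42e-12 and 9.91e-13) in the authors' deposited table. HDAC2 was at -1.44 and -1.50 in the authors' deposited table, while HDAC1, the other deacetylase of the complex, was at 1.01 and 1.10, and at -1.06 and -1.25 relative to the mitochondrial mRNAs. KAT5, an acetyltransferase used by MYC, was at -2.44 and -1.99, and KAT2A, another, at 1.19 and 1.33 in the authors' deposited table, the latter at -0.88 and -1.01 relative to the mitochondrial mRNAs. After 1 h of 955, 2 of 18 cofactors fell past the threshold, against 7.71% of all listed genes: ING2 at -1.10 (FDR 0.0352) and ARID4B at -1.04 (FDR 0.000153) in the authors' deposited table. Both belong to SIN3 complexes. ARID4B was at 0.085 after 6 h of 955 in the same deposited table (FDR 0.935). Relative to the mitochondrial mRNAs ARID4B was at -1.71 after 1 h and -1.99 after 6 h of 955.

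Of 14 partners of MGA in the noncanonical Polycomb complex PRC1.6, 5 are listed, and 4 of these were called lower and 0 higher after each compound, against 50.1% and 52.5% of all listed genes lower. Their medians were -1.85 and -1.57, beside -1.03 and -1.07. Relative to the mitochondrial mRNAs all 5 were lower with both compounds, against 66.4% and 72.1% of all listed genes. E2F6 was at -2.60 and -2.23, RNF2, a ubiquitin ligase for histone H2A, at -1.95 and -2.07, and L3MBTL2 at -1.85 and -1.57 in the authors' deposited table. PCGF6, the subunit that defines the complex, was called after 955, at -1.56 (FDR 7.39e-06), and not after SNS-032, at -0.55 (FDR 0.0725), in the authors' deposited table. Its difference of -1.01 passed the approximate contrast (standard error 0.23, adjusted p 0.0179), but not with adjustment over all 28395 tests (adjusted p 0.0883). Relative to the mitochondrial mRNAs the difference was -0.73 and under the bound. It also did not pass with an error that treats the DMSO samples as unshared (adjusted p 0.416), which is too large because they are shared. WDR5, a histone methyltransferase subunit, was at -1.19 after SNS-032 and, just inside the bound, at -0.97 after 955 (FDR 1.75e-06) in the authors' deposited table, and its difference of 0.22 did not pass (adjusted p 0.443).

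Regulators of MYC protein stability were measured only as mRNA. Of 20, 9 are in the authors' deposited table, with 6 lower and 1 higher after 955 and 8 lower and 1 higher after SNS-032. Over all listed genes 50.1% and 52.5% were lower and 35.2% and 37.8% higher. Relative to the mitochondrial mRNAs 8 were lower and 0 higher with each, against 66.4% and 72.1% of all listed genes lower. The mitotic kinases PLK1 and AURKA, both known to stabilise MYC family proteins, were at -4.02 and -4.44 and at -3.24 and -3.27 in the authors' deposited table. FBXL14, a ubiquitin ligase subunit, was at -2.08 and -2.40 in the authors' deposited table. USP28, a deubiquitinase that protects MYC, was the gene listed as higher, at 1.62 and 1.96 in the authors' deposited table and at -0.45 and -0.39 relative to the mitochondrial mRNAs. FBXO28, a ubiquitin ligase subunit that acts on MYC, was already at -1.12 after 1 h (FDR 0.00381) and stayed at -1.12 and -1.01 at 6 h in the authors' deposited table. Of 9 further genes of related E-box binding factors, 1 is in the table, TFE3, a regulator of lysosome genes, at 1.5 and 1.23 in the authors' deposited table and at -0.57 and -1.11 relative to the mitochondrial mRNAs.

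**Figure D4:**
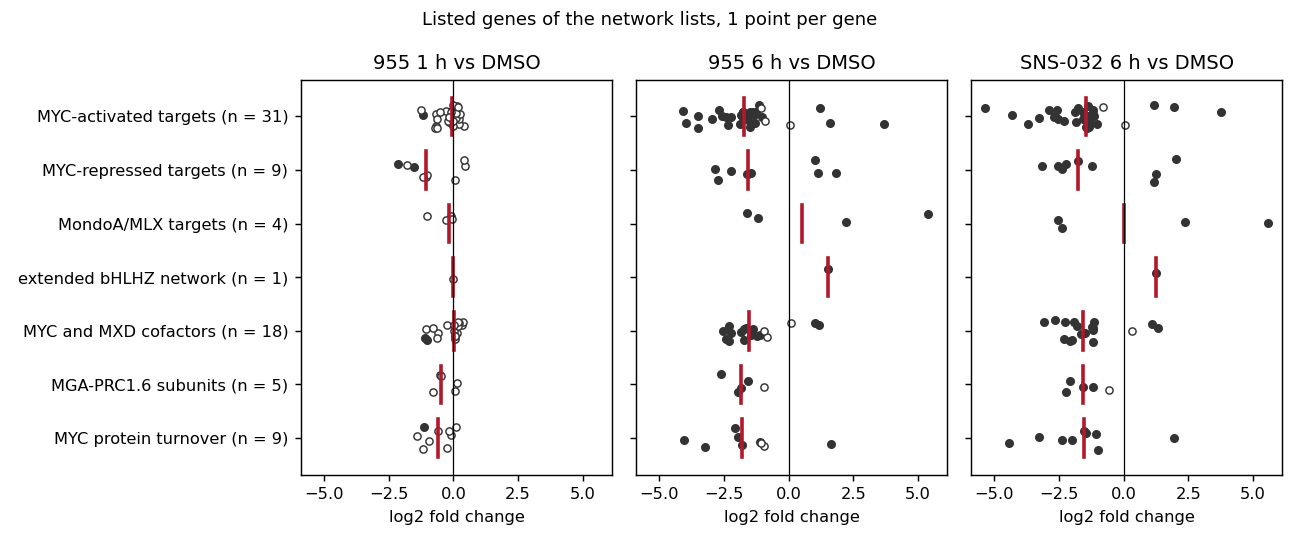
Log2 fold change (authors' scaling) of the listed genes of each list in the 3 comparisons, 1 point per gene, with the list's median as a red bar; filled points were called (FDR below 0.05, log2 fold change of 1 or more either way). At 1 h the medians of the MYC-activated targets and the cofactors lie near 0 and that of the MYC-repressed targets at -1.04, at 6 h most points lie below 0, and of the 12 genes called higher after 6 h of 955, 2 are still called higher relative to the mitochondrial mRNAs.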

How the data were processed

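Total RNA of MOLT4 cells went into libraries of a BGI mRNA kit, per the labels' protocols. The submitters' processing notes name hg38 and DESeq2 without saying for what. The aligner, counter, strand, annotation and filters are not given in the sources used here. The values are the authors' own comparisons of each treated group with DMSO: per the file headers, a fold change and an average CPM on log scales, an F statistic (a score), a p-value and an FDR, all as deposited. The deposited fold changes were read as log2, since each gene's largest absolute value starts just above 1. Replicates are separate samples per the labels, which do not say whether they are separate cultures, so p-values measure the spread between these samples, which may be technical. IDs were named from RefSeq (GRCh38.p14, 5727 of 5759 matched).

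An implied standard error is the size of the log2 fold change divided by the root of F. Denominator degrees of freedom were solved from F and p. Contrasts of treated groups used the root mean square of both standard errors, a t distribution and Benjamini-Hochberg adjustment over the 5759 listed genes (Python 3.11.15, scipy 1.17.1). On simulated data with 200 of 5759 genes changed between 955 and SNS-032 at 6 h, this contrast recovered 85.0% of them. The direct test recovered the same share by construction, since the simulation gave all comparisons of a gene the same standard error. The simulation therefore does not test the approximation where the implied standard errors differ between comparisons, as they do in the deposited values. Every member is named. From each list, up to 3 of the largest falls and rises after 6 h of 955 among genes past the threshold with both compounds are named, and others (E2F2, GADD45B, ING2, ARID4B, HDAC2, PCGF6, WDR5, FBXO28, and the genes whose sites are printed) were chosen after their values were seen. The members and lists were chosen with earlier results of these data known, and some targets overlap earlier lists. Alternatives were other thresholds, scaling on mitochondrial mRNAs, other standard errors, another adjustment and another reading of the average level. One marker of other cells is not reported here.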

Additional observations from a re-analysis of the deposited data

Results flagged for a closer look

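The 955 groups of 1 h and 6 h differed for all 3 members in the approximate contrast under the authors' scaling. Of the listed genes, 62.7% passed the same contrast. The log2 difference (6 h minus 1 h) was -2.04 for MYC (standard error 0.28, adjusted p 5.23e-05), 1.94 for MXI1 (0.20, 6.83e-09) and -1.89 for MLX (0.14, 7.3e-11). Relative to the mitochondrial mRNAs 2 members passed, and MXI1 was at 0.55, under the bound of 1. Both times share the DMSO samples of 6 h, and no vehicle group of 1 h was used here. Length of treatment and time in culture therefore cannot be told apart in this difference.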

How the results depend on the processing

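Scaling on the 13 mitochondrial mRNAs put 2 members (MYC and MLX, both lower) past the threshold after 1 h of 955 in place of 0, and 28 list genes in place of 6. It took all listed genes at 1 h from 42 higher and 444 lower to 16 higher and 1766 lower. With it 37.3% of the list genes and 30.7% of all listed genes were lower at 1 h. It turned MXI1 to -0.52 at 1 h and -0.078 after SNS-032, brought it to 0.026 after 6 h of 955, and turned its difference between the compounds to 0.10. The cause was not tested. The number of members called at 6 h was 2 or 3 under every alternative run, and 0 in the contrast of the compounds. List genes called at 1 h were 10 without the fold-change bound and 1 with a bound of 2 in place of 1 on the log2 fold change. That bound was added after seeing the data. It left 25 of the 75 list genes after 6 h of 955 (67 as reported) and 30 after SNS-032 (71 as reported). As reported, 85.3% and 90.2% of all listed genes were called at 6 h, and 8.44% after 1 h of 955. The shares of all listed genes under the other bounds are not given here, so these counts are no mark of the lists. Read instead as a mean of log values, the average level gave, in the order of vehicle, 955 (1 h, then 6 h) and SNS-032, 687, 338, 81.9 and 59.4 CPM for MYC, 13.1, 14.6, 56.2 and 63.3 CPM for MXI1, and 106, 78.0, 21.0 and 26.7 CPM for MLX, with the order of groups unchanged by construction. Listed genes past the contrast of the compounds, 64 as reported, were 8 with an error that treats the DMSO samples as unshared, 20 with adjustment over 28395 tests, 57 with the larger standard error, 157 without a bound and 181 with mitochondrial scaling. The DMSO samples are shared, so the error behind the 8 is too large. No paired analysis was possible because the table holds comparisons and no values per sample. For the same reason the planned leave-one-out settings were not run, and depth limits could not be assessed.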

Other observations

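Over all listed genes with a promoter window, the 563 with CACGTG and the 3971 without were set side by side. After 6 h of 955 the median log2 fold changes were -1.19 and -1.09, with quartiles of -1.77 and 1.23 and of -1.68 and 1.25. After SNS-032 they were -1.21 and -1.13, and after 1 h of 955 both were -0.08. These are descriptions with no test, over genes listed for having changed.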
